A study of Drosophila melanogaster with 12 samples.

Results

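The comparison described here sets the heads of 3 monogamous populations of Drosophila melanogaster against the heads of 3 polygamous populations, with each population counted once. It uses 12 of the 12 libraries of the study, 1 female and 1 male library for each of 6 populations. For every gene, log2(value + 1) of the female and the male library was averaged to 1 population mean. Of 11236 genes in the deposited table, 10568 with a mean normalised read count of 10 or more over the libraries were tested, and the account turns on changes that both sexes share. The monogamous populations had evolved for 117 generations under monogamy, and the polygamous populations for the same 117 generations under polygamy. The sources used here describe the mating regimes no further. All 6 populations then passed 1 generation in a shared environment. Virgin flies were sorted by sex, kept with their own sex, and their heads were taken at 4 days of age. Each population is 1 replicate, the number of flies behind a library is not given in the sources used here, and all standard errors (SE) below are between populations (n = 3 for each mating system). Fits of single libraries, named where quoted, treat libraries as the units of error.

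Enforced monogamy removes competition between males for mates and fertilisations, and ties the reproductive interests of a pair together, whereas polygamy keeps sexual selection and conflict between the sexes in play. The fly head holds the brain and compound eyes, the antennae and palps with their odour receptor neurons, and also fat body, blood cells, trachea, muscle and cuticle. A change of transcript level in whole heads can therefore lie in nervous, sensory, immune or metabolic tissue.

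Depth recovered from the deposited values was 34558521 to 52282995 reads per library. The labels were checked against sex and tissue genes. lncRNA:roX1, the male-specific RNA of dosage compensation, lay at 254 to 403 normalised read counts in female libraries and at 66661 to 88863 in male libraries. The opsin gene ninaE stood at 1786190 or more in every library. One library stood apart, the female library of monogamous population 1. A list of neuron genes took 0.26% of its signal, against 0.861% and 0.873% in the other monogamous female libraries and 0.894% to 0.996% in the polygamous female libraries. Ribosomal protein genes took 9.71% of its signal, against 6.13% to 7.32% in the other female libraries. This library is part of the mean of monogamous population 1. Results that rest on it are therefore given with it and from a fit of 11 libraries without it, in which the population was a random block and sex a term.

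Distances between population means of 1 mating system overlapped with distances between the mating systems. As a root mean square over genes of the log2 difference between population means, pairs of 1 monogamous and 1 polygamous population lay 0.346 to 0.635 apart. The monogamous pairs lay 0.326 to 0.531 apart and the polygamous pairs 0.340 to 0.344. With population 1 of the monogamous group set aside, the remaining monogamous pair was the closest of all, at 0.326. In male libraries, which do not contain the library that stood apart, pairs across mating systems lay 0.41 to 0.552 apart by root mean square. Monogamous male pairs lay 0.4 to 0.546 apart and polygamous ones 0.36 to 0.416. By the median size of the log2 difference over genes, male pairs across mating systems lay 0.134 to 0.166 apart, above all pairs within them. Monogamous male pairs lay 0.0776 to 0.1195 apart by that measure, and polygamous ones 0.0984 to 0.123. In females and in population means the ranges overlapped by that measure too. The first principal component of the 6 population means held 50.2% of the variance and set monogamous population 1 (score 43.5) far from the other 5. Monogamous populations 2 and 3 had scores of 2.45 and -2.27 on it, and the polygamous populations -19.8 to -9.25, so the groups did not overlap. The second held 16.1%, with monogamous populations 2 and 3 at -15.7 and -17.3, the polygamous populations at 5.56 to 10.4 and monogamous population 1 at 8.7. On the second component the groups overlapped through monogamous population 1. The median standard deviation of a gene between populations was 0.137 log2 units in the monogamous and 0.089 in the polygamous group.

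**Figure D1:**
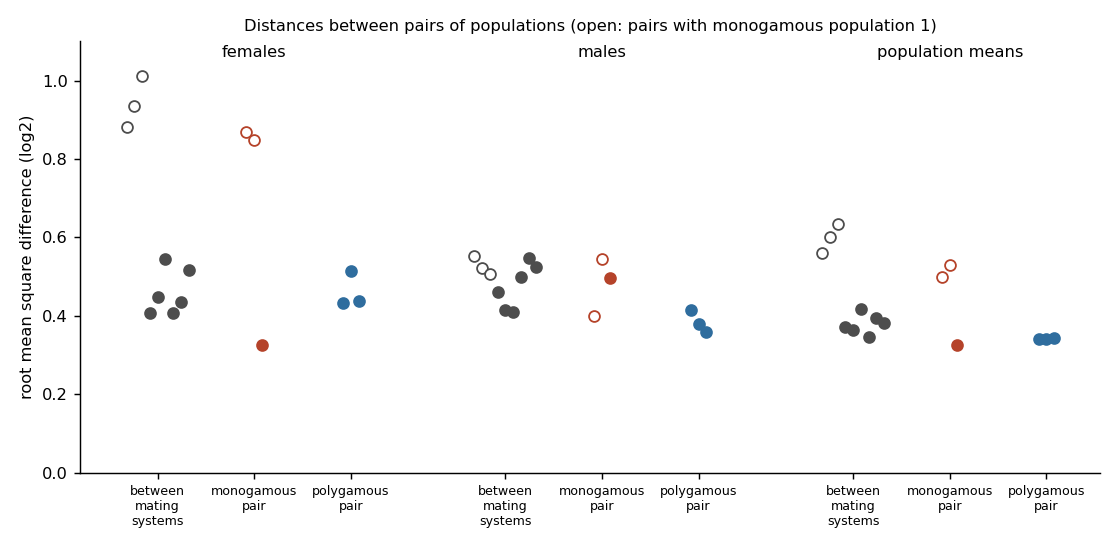
Each point is the root mean square log2 difference over 10568 genes between 2 populations (y axis), in females, in males and in population means, for pairs across mating systems, monogamous pairs and polygamous pairs; open points involve monogamous population 1. In females the 5 open points lie at 0.848 to 1.01, above all others, and without them the pairs across mating systems and within them cover similar ranges.

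With the populations as replicates, no single gene passed. The limma test on population means called 0 of 10568 genes (0.0%) at an adjusted p under 0.05. At an unadjusted p under 0.05 there were 1496 genes (14.2%), 725 higher and 771 lower under monogamy. The smallest limma adjusted p was 0.119, shared by nAChRbeta3 and yellow-c. With the reads of both sexes added up per population, edgeR called 0 genes, with 1538 at an unadjusted p under 0.05, and DESeq2 called 386 of the 10353 genes to which it gave an adjusted p (3.73%), 282 higher and 104 lower under monogamy. Leaving out the female library of monogamous population 1 gave 515 called genes (4.87%), 228 higher and 287 lower, by limma on 11 libraries. The same kind of fit on all 12 libraries called 96 genes (0.908%), 64 higher and 32 lower, and the population means without monogamous population 1 called 0. The fit of 11 libraries treats libraries as the units of error, with a median of 11.1 total degrees of freedom per gene against 6.41 for the population means, and so tends to give smaller p-values. It is quoted below as a second reading and not as a test of populations.

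Non-overlap gives a view without a threshold on p. The 3 monogamous and 3 polygamous population means did not overlap for 3031 genes (28.7%), 1207 higher (11.4%) and 1824 lower (17.3%) under monogamy. The direction of this split depended on how libraries were scaled. Under the deposited scaling 39.8% of these genes were higher under monogamy, against 52.5% after TMM rescaling and 47.9% after upper-quartile rescaling. The median difference of all genes was small under each, -0.03 as deposited, -0.01 after TMM and 0.00 after upper-quartile rescaling. A count of higher against lower genes is therefore not read below as a direction of the whole transcriptome.

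The gene with the largest shared difference was CG11700 (FBgn0029856), a relative of the polyubiquitin genes. Its population levels were 960.4, 312 and 183 normalised read counts in monogamous populations 1, 2 and 3, against 20.9, 18.3 and 16.6 in polygamous populations 1, 2 and 3. A population level is the back-transformed mean of log2(value + 1) over its 2 sexes. Females read 986, 273 and 164 in the monogamous populations and 14.9, 13.3 and 11 in the polygamous ones. Males read 936, 356 and 204 in the monogamous populations and 29.1, 25.2 and 25 in the polygamous ones. No monogamous library overlapped a polygamous one in either sex, and the monogamous populations differed from each other by more than the polygamous ones did. The log2 difference was 4.28 (SE 0.57, limma adjusted p = 0.235) on population means and 4.01 on 11 libraries (limma adjusted p = 0.00244). Ubi-p5E and Ubi-p63E, which encode polyubiquitin at far higher levels, differed by -0.15 and 0.16. Reads of near-identical ubiquitin repeats could be divided among these genes in counting, so the level of CG11700 is uncertain.

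The genes with the smallest p were a neuronal receptor subunit and a member of the yellow gene family. nAChRbeta3 (FBgn0031261), a subunit of the nicotinic acetylcholine receptors that carry fast excitatory transmission in the fly brain, stood at 499.7, 491 and 509.9 in the monogamous populations, against 314, 283 and 291 in the polygamous populations. Its female libraries held 492, 461 and 415 under monogamy and 348, 320.4 and 300.2 under polygamy. The male libraries held 507, 523 and 627 under monogamy and 282, 251 and 283 under polygamy. All 6 monogamous libraries lay above all 6 polygamous libraries, and the log2 difference was 0.76 (SE 0.069, limma adjusted p = 0.119; on 11 libraries 0.76, limma adjusted p = 0.0297). Among 9 nicotinic subunit genes tested 2 had higher and 7 lower values, against 43.7% higher over all genes. The population means of 4 subunits were apart as lower, against 17.3% of all genes. Those of nAChRbeta3 alone were apart as higher, a share near the 11.4% of all genes. nAChRalpha5, with levels of 4490.1, 8238 and 8041 in the monogamous and 8849, 9884 and 9582 in the polygamous populations, differed by -0.50 (limma adjusted p = 0.379) and by -0.22 on 11 libraries. yellow-c (FBgn0041713) stood at 414, 397 and 409 in the monogamous and 254, 235 and 243 in the polygamous populations. Its groups did not overlap within either sex, though male libraries ran above female libraries in both mating systems, and the difference was 0.73 (SE 0.067, limma adjusted p = 0.119).

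The 24 genes with the smallest p in the 2 directions were chosen among those whose population means did not overlap. None of the 24 passed, all at a limma adjusted p of 0.248 or less. Among them 21 were apart in both sexes, against 9.64% of all genes, and 19 passed in the fit of 11 libraries, against 4.87%. Both counts reuse the libraries that the genes were chosen from, and the choice itself favours them. Those higher under monogamy included genes with roles in blood cells, eye pigment and growth signalling. Hml (FBgn0029167), the clotting factor hemolectin, stood at 2116, 2441 and 2211 in the monogamous and 1403, 1527 and 1426 in the polygamous populations. NimC1 (FBgn0259896), a phagocytic receptor of plasmatocytes, the main class of fly blood cells, stood at 658, 679 and 563 in the monogamous and 328, 378 and 379 in the polygamous populations. NimC1 was apart in all 12 libraries with a difference of 0.80 (SE 0.10, limma adjusted p = 0.235), and Hml was apart in males and in population means but not in females. DhpD (FBgn0261436), an enzyme of the pteridine pathway of eye pigments, stood at 2748, 2585 and 2676 in the monogamous against 1939.8, 2019 and 2076 in the polygamous populations. Its difference was 0.41 (SE 0.058, limma adjusted p = 0.248), and all 12 libraries were apart. magu (FBgn0262169), which encodes a secreted modulator of BMP signalling, stood at 2308, 2422 and 2329.9 under monogamy and 1692, 1851 and 1692 under polygamy, again with all 12 libraries apart. CG9747, a predicted fatty acid desaturase gene, differed by 0.46, and the less studied CG4950, CG32645, CG31915 and CG10205 by 0.76, 0.58, 0.50 and 0.47.

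Those lower under monogamy included chemosensory receptors. Or45b (FBgn0033422), an odorant receptor gene, stood at 247, 230.1 and 227 in the monogamous populations and 476, 529 and 395 in the polygamous populations. The groups were apart in each sex, with a difference of -0.98 (SE 0.12, limma adjusted p = 0.235; on 11 libraries -0.82, limma adjusted p = 0.0325). Ir76a (FBgn0260874), an ionotropic receptor of antennal neurons, stood at 208, 172 and 211 in the monogamous and 299, 310.0 and 361 in the polygamous populations. Every monogamous library lay below every polygamous library, and the difference was -0.71 (SE 0.12, limma adjusted p = 0.248). Ag5r (FBgn0015010), a gene of the antigen 5 family of secreted proteins, stood at 51.7, 93.1 and 142 in the monogamous and 359.8, 522 and 352 in the polygamous populations, a difference of -2.18 (SE 0.37, limma adjusted p = 0.248) with all 12 libraries apart. Alp6, an alkaline phosphatase gene, differed by -0.68, and its libraries were apart in females but overlapped in males. The male-specific RNA lncRNA:roX1 had a lower population level too, 4391, 4864 and 4452 under monogamy and 5780.3, 5799 and 5954 under polygamy, with differences of -0.44 in females and -0.28 in males, apart in each. CG9411 and CR43212 had the largest differences of the other 6 genes named in this direction, -1.59 and -0.97, while CG10431, CG7255, CG30466 and CG10650 differed by -0.41, -0.41, -0.60 and -0.63.

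**Figure D2:**
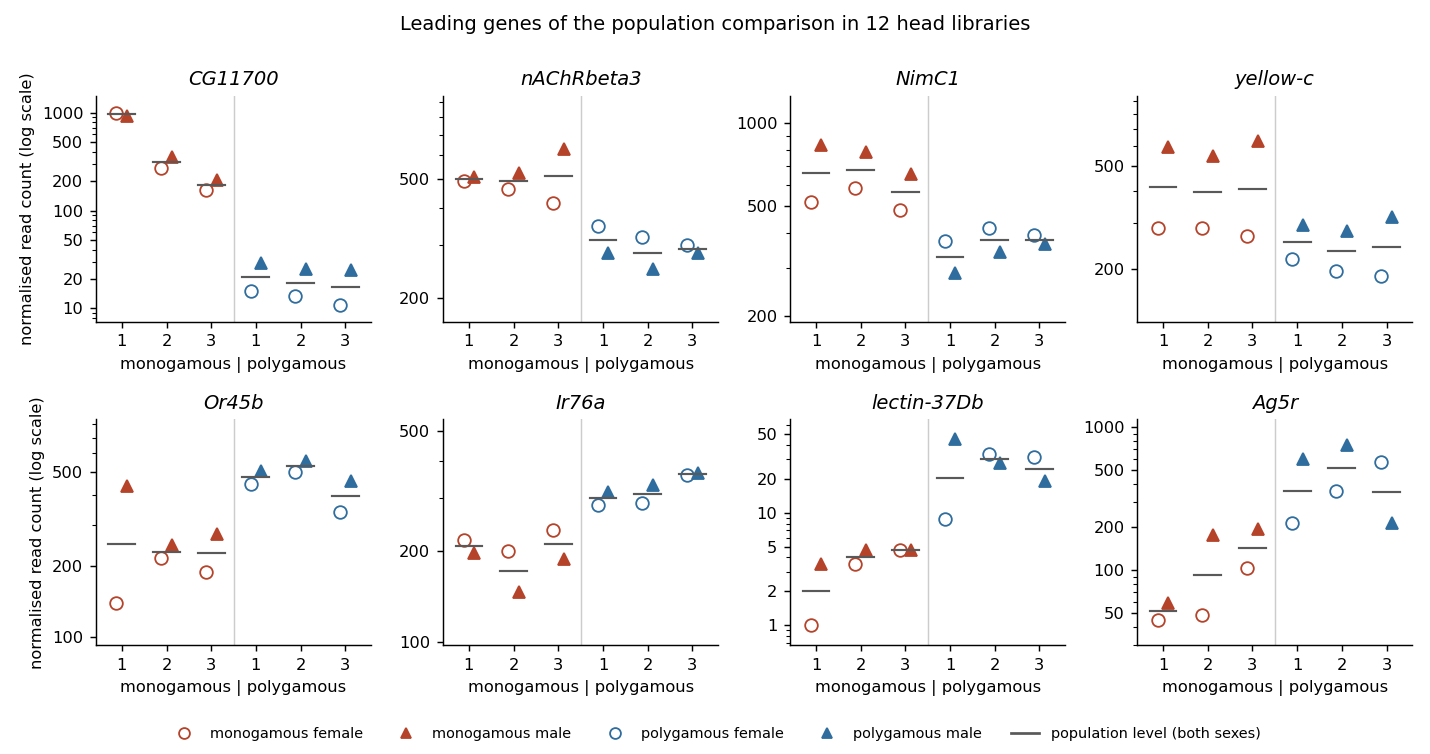
Normalised read counts (log scale) of 8 genes in each of the 12 libraries, by population number, with monogamous populations in red on the left and polygamous populations in blue on the right; open circles are females, triangles are males, and bars are the population levels over both sexes. CG11700, nAChRbeta3, NimC1 and yellow-c lie higher and Or45b, Ir76a, lectin-37Db and Ag5r lower under monogamy, and of these 8 genes CG11700 varies most among the monogamous populations.

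Genes apart in both sexes were fewer than genes apart in either. Female libraries of the 2 mating systems did not overlap for 2492 genes (23.6%), and male libraries for 3358 genes (31.8%). Both held in the same direction for 1019 genes (9.64%), 381 higher (3.61%) and 638 lower (6.04%) under monogamy, which is 40.9% of the female set and 30.3% of the male set. Another 91 genes (0.861%) were apart in both sexes in opposite directions. For 276 genes (2.61%) all 6 monogamous libraries lay on 1 side of all 6 polygamous ones, 103 higher (0.975%) and 173 lower (1.64%). Without the female library of monogamous population 1, with 2 monogamous females left against 3, both sexes were apart in the same direction for 505 higher and 920 lower genes. TMM rescaling turned the split to 554 higher and 419 lower, so 56.9% were then higher, against 37.4% under the deposited scaling and 42.2% after upper-quartile rescaling.

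The shared differences were mostly small. Among the 1019 genes the median size was 0.32 log2 units, against 0.14 over all genes, a gap that the choice by non-overlap itself favours. A fold of 2 or more separated the mating systems at 142 genes (1.34%), and 28 of these were apart in both sexes. Of the 515 genes called without the library that stood apart, 454 had population means that did not overlap and 379 were apart in both sexes. Over all genes these shares were 28.7% and 9.64%. The 515 were called from libraries that also enter both counts, so the choice itself favours them. For 36 of the 1019 genes the size of the difference itself differed between the sexes at an unadjusted p under 0.05 of the limma sex-difference test.

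**Figure D3:**
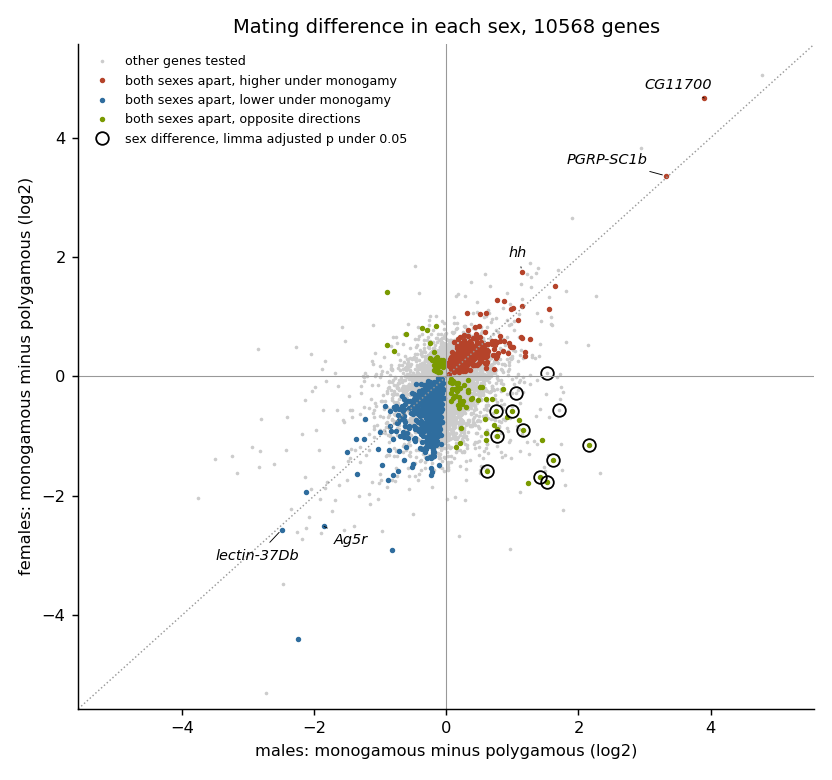
Monogamous minus polygamous log2 difference of 10568 genes in males (x axis) and females (y axis); red and blue points are the 381 higher and 638 lower genes whose libraries did not overlap in either sex, green points the 91 apart in opposite directions, and black rings the 12 genes whose difference differed between sexes at a limma adjusted p under 0.05. CG11700 and PGRP-SC1b lie far out in both sexes, and all 12 ringed genes lie below the dotted line of equal differences.

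Genes with large shared differences after CG11700 were of mixed roles. PGRP-SC1b (FBgn0033327), a secreted amidase that cleaves bacterial peptidoglycan, stood at 52.9, 172 and 189 in the monogamous and 31.1, 25.5 and 1 in the polygamous populations. All 12 libraries were apart, but both libraries of polygamous population 3 had a normalised read count of 1, and the difference of 3.34 (SE 1.13, limma adjusted p = 0.328) therefore rests on few reads there. Its reads could also be divided with the near-identical PGRP-SC1a. hh (FBgn0004644), the Hedgehog signalling ligand, stood at 94.5, 116 and 114 under monogamy and 71.5, 19.1 and 42.3 under polygamy, a difference of 1.45 (SE 0.44, limma adjusted p = 0.31). Obp99a (FBgn0039678), one of the abundant odorant-binding proteins, stood at 13303, 11059.5 and 12381 in the monogamous and 7137, 5585 and 4044 in the polygamous populations. The difference was alike in both sexes, 1.19 in females and 1.15 in males, and 1.17 on population means (SE 0.20, limma adjusted p = 0.248; on 11 libraries 1.13, limma adjusted p = 0.0253). Osi2 of the Osiris family (1.34), the cuticle protein gene Lcp65Ag3 (1.07) and the P450 gene Cyp304a1 (1.07) were also among the largest higher differences.

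On the lower side stood a pair of C-type lectin genes, which encode sugar-binding proteins. lectin-37Db (FBgn0053533) was at very low read counts under monogamy, 2, 4.04 and 4.68, against 20.2, 30.2 and 24.3 under polygamy. Its female libraries held 1, 3.48 and 4.69 in the monogamous and 8.79, 33.2 and 30.9 in the polygamous populations. Its male libraries held 3.5, 4.68 and 4.67 in the monogamous and 44.8, 27.4 and 19 in the polygamous populations. The 2 groups of 6 libraries did not overlap, and the difference was -2.53 (SE 0.35, limma adjusted p = 0.235). lectin-37Da, its close copy, stood at 3.9, 3.61 and 5.84 under monogamy and 14.4, 15.8 and 40.1 under polygamy (-2.04, limma adjusted p = 0.276), and reads could be divided between the copies. Lectin-galC1, the third gene of the cluster, stood at 27.9, 19.2 and 18.7 under monogamy and 56, 40.8 and 49.1 under polygamy, a difference of -1.12 (limma adjusted p = 0.248). Grl36b, a gustatory receptor-like gene, differed by -1.31 with the female library of monogamous population 1 and by -0.86 without it (limma adjusted p = 0.00421 on 11 libraries). CG2861 likewise had a difference of -1.87, reduced to -1.05 without that library, in which its normalised read count was 1. The caspase gene Decay differed by -1.49 at low levels, 3.08, 5.81 and 6.67 under monogamy and 14, 16.7 and 16.9 under polygamy. CAH8 of the carbonic anhydrase family stood at 9.92, 10.2 and 13.1 under monogamy and 18.8, 18.6 and 78.7 under polygamy (-1.39). Polygamous population 3 lay far above the others for CAH8, and 1 further gene of these 8 had no symbol.

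Most blood cell genes had higher values under monogamy. Of 24 hemocyte genes tested 19 were higher, with a median log2 difference of 0.30, against -0.03 over all genes, and of 0.29 on 11 libraries. The population means were apart for 12 of them, all higher, where 11.4% of all genes were apart in that direction. Both sexes were apart for 5, all higher, against 3.61% of all genes, and 6 passed in the fit of 11 libraries, where 2.16% of all genes passed as higher. None passed in population means. The summed level of the list was 0.166% to 0.183% of signal in monogamous females, against 0.153% to 0.163% in polygamous females, and 0.193% to 0.215% in monogamous males, against 0.153% to 0.16% in polygamous males. More blood cells in a head and more RNA per blood cell cannot be told apart in whole heads, here or for the other cell types below.

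Genes of the basement membrane, the extracellular sheet that blood cells and fat body help to build, had higher values too. Of 11 tested 9 were higher with a median of 0.42 (0.37 on 11 libraries), 9 had population means apart and 6 were apart in both sexes, all higher, against 11.4% and 3.61% of all genes. The median was 0.17 in females and 0.50 in males. The lists share 4 genes (Col4a1, Ppn, Pxn and vkg), so they are not separate observations. Ppn (FBgn0003137), which encodes papilin, stood at 4923, 4989.8 and 4911 in the monogamous and 3219, 3831 and 3271 in the polygamous populations, with all 12 libraries apart. Its difference was 0.53 (SE 0.082, limma adjusted p = 0.248; on 11 libraries 0.59, limma adjusted p = 0.0287). The collagen IV gene vkg stood at 6451, 5252 and 5108 under monogamy and 3853, 3768 and 3648 under polygamy, and its difference was 0.19 in females and 0.94 in males, with female libraries that overlapped. The laminin gene LanA stood at 1120.0, 1073 and 957 under monogamy and 747, 789.8 and 808 under polygamy, with a difference of 0.42 (limma adjusted p = 0.248) and all 12 libraries apart.

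Glial genes, which mark the supporting cells of the brain and eye, were higher in 14 of 15 cases with a median of 0.23 (0.25 on 11 libraries). Population means were apart in 12 as higher and 1 as lower, against 11.4% and 17.3% of all genes. Both sexes were apart in 3, all higher, against 3.61% of all genes. The median was 0.11 in females and 0.36 in males. Without the female library of monogamous population 1, the female median was 0.042. Gat, the GABA transporter of astrocyte-like glia, showed this, with levels of 9830.4, 9673 and 9323 in the monogamous and 7087, 7728 and 7424 in the polygamous populations. Its difference was 0.37 on population means (limma adjusted p = 0.248), -0.023 in females and 0.77 in males. alrm, another astrocyte gene, differed by 0.30 in females (0.091 without that library) and 0.81 in males. The pigmentation list, enzymes and yellow-family proteins of melanin and sclerotin formation, had a median of 0.22, with 7 of 21 members apart as higher and 1 as lower, against 11.4% and 17.3% of all genes. ebony (e), whose enzyme joins dopamine to beta-alanine in cuticle and glia and which both lists hold, stood at 4052, 3175 and 3264 under monogamy and 2151, 2107 and 1662 under polygamy. It differed by 0.36 in females (0.24 without that library) and 1.29 in males. black (b), which supplies the beta-alanine, differed more evenly, by 0.49 and 0.46, though its female libraries overlapped.

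Sensory genes showed both directions. Odorant receptor genes were lower in most cases, with 10 of 49 having higher values, a median of -0.25 (-0.24 on 11 libraries), 19 with population means apart as lower and 2 as higher, where 17.3% and 11.4% of all genes were. Both sexes were apart for 5, all lower, against 6.04% of all genes. Or59c differed the other way, at 126, 126 and 142 under monogamy and 79.6, 74.1 and 91.1 under polygamy (0.68, limma adjusted p = 0.248). Among 26 ionotropic receptor genes 6 had population means apart as lower and 1 as higher, the lower share near the 17.3% of all genes. After Ir76a came Ir41a, an antennal receptor of amine-sensing neurons, at 26.5, 25.4 and 31.7 in the monogamous and 93.8, 54.8 and 48.4 in the polygamous populations. All 12 libraries were apart for Ir41a, with a difference of -1.15 (limma adjusted p = 0.276; on 11 libraries -1.07, limma adjusted p = 0.0374). The median of the gustatory receptor genes was -0.20, and population means were apart for 4 of 20 as lower, a share near the 17.3% of all genes. Gr33a, a receptor for bitter compounds, had higher values (0.40) and was apart in both sexes. Odorant-binding proteins, secreted into the fluid around those receptors, had a median of -0.082 (-0.14 on 11 libraries), and 4 of 35 were apart in both sexes as higher and 1 as lower, against 3.61% and 6.04% of all genes. Population means were apart for 5 as higher and 3 as lower. Beside Obp99a, those higher in both sexes included Obp56e (0.59) and Obp18a (0.35), and 0 of the odorant receptors were apart in both sexes as higher.

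In the eye, the 32 phototransduction genes had a median of 0.0081, close to that of all genes. Their summed level was lower under monogamy in males, at 9.09% to 9.82% of signal against 10.27% to 11.1% under polygamy. In females the groups overlapped through the library that stood apart, at 11.7%. The other monogamous females had 8.42% and 8.65%, against 9.01% to 9.55% in polygamous females. Scavenger receptor genes for carotenoid uptake had higher values. ninaD stood at 853, 700.5 and 704 under monogamy and 537, 461 and 565 under polygamy, with all 12 libraries apart (0.53, limma adjusted p = 0.276; on 11 libraries limma adjusted p = 0.0296). santa-maria stood at 4171, 3994 and 4096 under monogamy and 3332, 3166 and 3126 under polygamy (0.35, limma adjusted p = 0.248). Its difference was 0.12 in females, whose libraries overlapped, and 0.58 in males, whose libraries were apart. inaC, the eye protein kinase C, had lower values, with differences of -0.28 in females and -0.18 in males, apart in both.

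Most neuropeptide genes had lower values under monogamy. Of 38 precursors 9 were higher, the median was -0.17 (-0.18 on 11 libraries), 16 had population means apart as lower and 1 as higher, against 17.3% and 11.4% of all genes. Both sexes were apart for 7, all lower, against 6.04% of all genes, and 8 passed as lower on 11 libraries, where 2.72% of all genes did. Trissin (FBgn0038343) stood at 1080.4, 1243 and 1236 in the monogamous and 1678, 1489 and 1905 in the polygamous populations. Its difference was -0.51 (SE 0.11, limma adjusted p = 0.276), -0.34 in females and -0.68 in males, apart in each. Orcokinin stood at 2415, 2279.8 and 2355 under monogamy and 2965, 2728 and 2912 under polygamy, and NPF, a peptide of feeding and courtship circuits, at 1511, 1577 and 1528 under monogamy and 1893, 1777 and 1849 under polygamy. Both were apart in males and in population means but not in females, where the differences were -0.086 and -0.055.

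The differences of other neuronal genes rested largely on 1 library. Voltage-gated channel genes were lower in every one of 23 cases, with a median of -0.51, and -0.14 on 11 libraries. The neuron list had -0.36 and -0.066, the transmitter and synapse list -0.16 and -0.011, and biogenic amine receptors -0.26 and -0.069; 11 genes are in both of the first pair. What remained without the library was small but included channel genes. eag, a potassium channel gene, stood at 2334, 4778 and 4519 in the monogamous and 5920.0, 6291 and 5785 in the polygamous populations, and differed by -0.33 on 11 libraries (limma adjusted p = 0.0183). stj, which encodes a calcium channel subunit, differed by -0.27 there (limma adjusted p = 0.0288). KCNQ, another potassium channel gene, was the one among these 3 with all 12 libraries apart (-0.33 on population means and -0.21 on 11 libraries). Of the 23 channel genes 5 passed as lower on 11 libraries and 0 as higher, against 2.72% and 2.16% of all genes.

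Metabolic lists had medians on both sides of 0. Of 23 lipid synthesis, storage and lipase genes 18 were higher, with a median of 0.18 (0.14 on 11 libraries), 8 with population means apart and 4 apart in both sexes, all higher, against 11.4% and 3.61% of all genes. ACC, acetyl-CoA carboxylase, the entry to fatty acid synthesis, stood at 38384, 32564 and 32490.2 in the monogamous and 28555, 24385 and 22660.5 in the polygamous populations (0.45, limma adjusted p = 0.305; on 11 libraries limma adjusted p = 0.0314). SREBP, the transcription factor of lipid synthesis genes, stood at 16582, 14690.0 and 15441 under monogamy and 13179, 12863 and 13155 under polygamy, with all 12 libraries apart (0.25, limma adjusted p = 0.308). Of 77 cytochrome P450 genes, oxidases of foreign compounds, lipids and hormones, 17 were apart as higher and 7 as lower, against 11.4% and 17.3% of all genes. Both sexes were apart for 9 P450 genes as higher and 3 as lower, against 3.61% and 6.04% of all genes. Cyp4ac2 stood at 974, 887 and 963 in the monogamous and 566, 408 and 636 in the polygamous populations, with all 12 libraries apart (0.83, limma adjusted p = 0.248; on 11 libraries limma adjusted p = 0.0297). UDP-glycosyltransferases, which attach sugars to small molecules, had a median of 0.20, and 4 of 25 had population means apart, all higher, a share near the 11.4% of all genes. Glutathione S-transferases had a median of -0.042, with 12 of 32 higher. Within insulin signalling, Pdk1, the kinase that activates Akt, stood at 12055, 14779 and 24414 in the monogamous and 28588, 29167 and 30319 in the polygamous populations. All 12 libraries were apart for Pdk1, monogamous population 3 lay nearest to the polygamous populations, and the difference was -0.85 (limma adjusted p = 0.308; on 11 libraries -0.76, limma adjusted p = 0.0338). Est-6, a carboxylesterase gene, stood at 19830.5, 16209 and 15002 under monogamy and 13360.2, 12318 and 11477 under polygamy, apart in both sexes (0.45, limma adjusted p = 0.307).

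Immune effector genes did not follow the blood cell genes. All 12 antimicrobial peptide genes had lower values under monogamy, with a median of -0.95 (-1.39 on 11 libraries). Population means were apart for 2, both lower, a share near the 17.3% of all genes. None of the peptide genes was apart in both sexes, against 6.04% of all genes as lower. CecA1, a cecropin gene, shows how widely they varied, at 25.8, 4.31 and 18.8 in the monogamous and 34.3, 69.1 and 27.5 in the polygamous populations (-1.55, SE 0.66, limma adjusted p = 0.36). The Toll-induced bomanins and Daisho peptides had a median of -0.18 (-0.35 on 11 libraries). No population means were apart among 16, against 11.4% of all genes as higher and 17.3% as lower. The 11 peptidoglycan recognition proteins, PGRP-SC1b among them, had a median of 0.01.

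Among lists of the core cell machinery, the ribosomal median over both sexes changed sign without the library that stood apart. The snoRNA median over both sexes did not, though the snoRNA median in females did. For ribosomal protein genes the median was 0.061 with the library that stood apart and -0.044 without it. Population means were apart for 1 of 80, as higher, against 11.4% of all genes as higher and 17.3% as lower. Proteasome subunit genes were higher in 31 of 35 cases (median 0.12) and 7 were apart in both sexes, all higher, against 3.61% of all genes, but the median was 0.031 without that library. Genes of oxidative phosphorylation had a median of 0.016. The snoRNA list, guides of RNA modification and their host transcripts, was lower in all but 3 of 51 cases, with a median of -0.27 (-0.28 on 11 libraries). It was -0.065 in females (0.0072 without the library that stood apart) and -0.48 in males. Of the members 13 had population means apart as lower, and 4 were apart in both sexes, against 17.3% and 6.04% of all genes. Uhg5, a snoRNA host gene, stood at 259, 279.7 and 309.7 under monogamy and 379.9, 390.4 and 403 under polygamy (-0.47, limma adjusted p = 0.248). Short RNAs inside introns of other genes share reads with their hosts, and the libraries were made from mRNA, so these levels are uncertain. Mitochondrial Hsc70-5, a chaperone gene, was higher with all 12 libraries apart, at 14810.3, 13660.4 and 13672 in the monogamous and 11950.2, 11066 and 10382 in the polygamous populations (0.34, limma adjusted p = 0.276; on 11 libraries limma adjusted p = 0.0297).

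Markers of other tissues in a head varied as well. Muscle contractile genes had a median of -0.17 (-0.13 on 11 libraries), with 6 of 23 population means apart, all lower, against 17.3% of all genes. Their summed level was 1.21% to 1.27% of signal in monogamous females, against 1.2% to 1.54% in polygamous females, and 0.984% to 1.12% in monogamous males, against 0.887% to 1.13% in polygamous males, so the groups overlapped. Gut genes, 7 of which were tested, had a median of -0.59, and 1 had population means apart as higher and 1 as lower. The 5 male fat body genes had a median of 0.37, and 2 were apart as higher and 1 as lower. Over all genes these shares were 11.4% and 17.3%. The summed gut level overlapped between mating systems in both sexes. The summed male fat body level overlapped in males and was higher under monogamy in females. The 9 yolk and female fat body genes had a median of 0.62 in females and -0.16 in males. Their summed level was 4.42% to 6.15% of signal in monogamous females, against 2.78% to 3.36% in polygamous females, and 0.360% to 0.389% in monogamous males, against 0.258% to 0.339% in polygamous males. The groups did not overlap in either sex. This list shares 3 genes (Apoltp, Lip3 and apolpp) with the lipid list described above, so the 2 lists are not separate observations. Among the male fat body genes, sxe2, a lipase gene, stood at 8699, 7946 and 8699.7 in the monogamous and 6978, 5649 and 6695 in the polygamous populations (0.40, limma adjusted p = 0.293), apart in both sexes. Of the clock genes, Clk stood at 958, 2219.7 and 2266 under monogamy and 3508, 2904 and 3167 under polygamy, while vri, a target of the Clk protein, stood at 2509.5, 4787 and 4866 under monogamy and 2283, 2722 and 2490.1 under polygamy. The differences were -0.91 for Clk (-0.41 on 11 libraries) and 0.64 for vri (0.75), neither was apart in both sexes, and the sources used here do not state the hour at which heads were taken. The part of any of these tissues in the differences above was not tested.

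**Figure D4:**
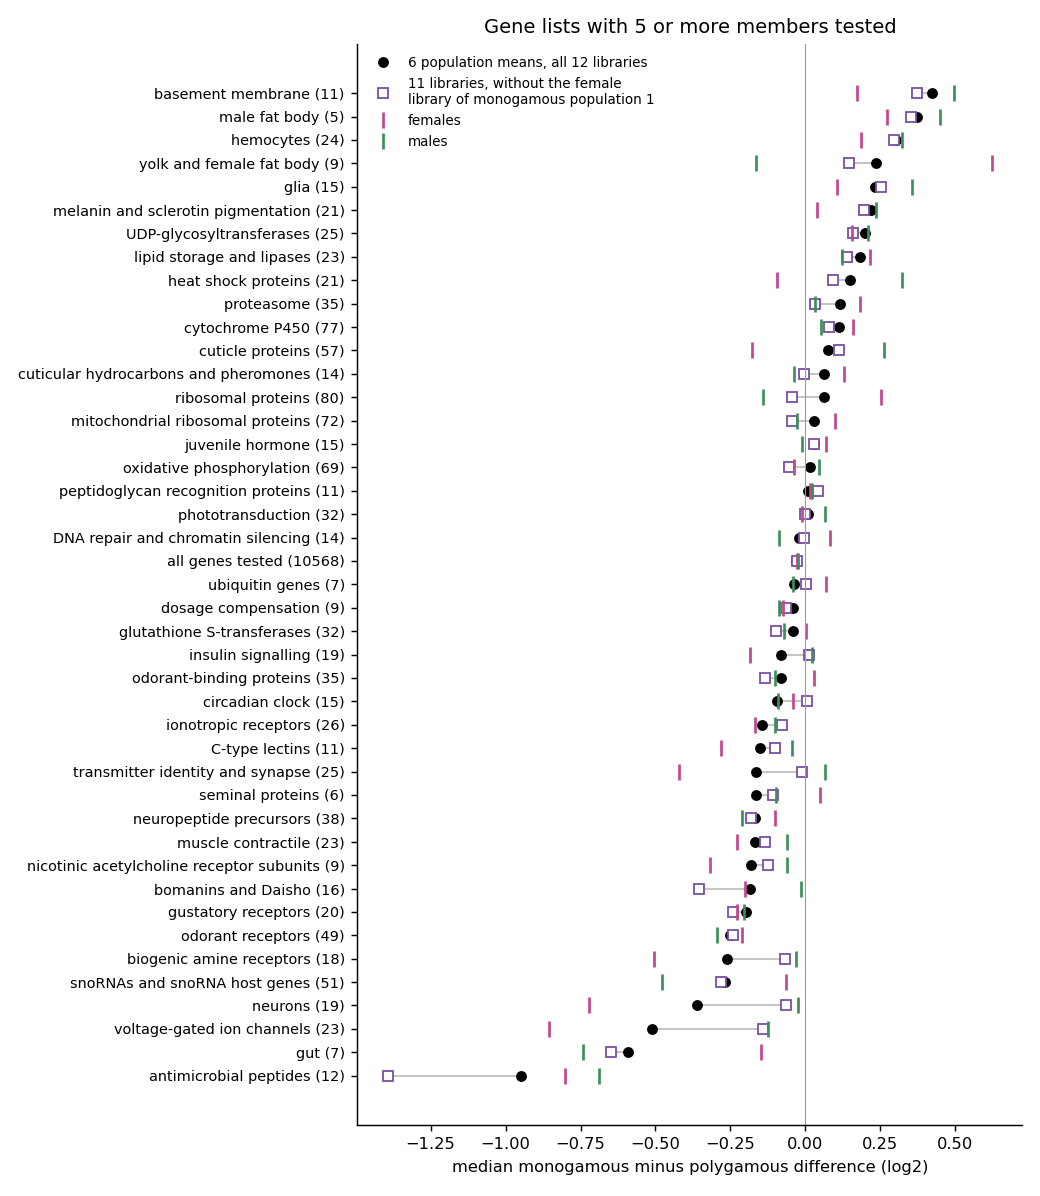
Median monogamous minus polygamous log2 difference (x axis) of each gene list with 5 or more tested members, whose number is in brackets; black points are population means of all 12 libraries, open squares the fit of 11 libraries, and ticks the medians in females (pink) and males (green). Basement membrane, hemocyte and glial medians lie above that of all genes, while the channel, neuron and amine receptor lists move toward 0 without the female library of monogamous population 1.

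The genes apart in both sexes were spread over the large chromosome arms in similar shares, 8.95% of tested genes on 2R to 10.4% on 3L. Chromosome 4, the small, largely heterochromatic chromosome, had a larger share. Of its 84 tested genes 22 (26.2%) were apart in both sexes, all lower under monogamy, and 90.5% had a lower value, against 52.7% to 59.2% on the other arms. The median difference on chromosome 4 was -0.34, of which much rested on the library that stood apart. It was -0.60 in females with that library and -0.15 without it, -0.10 in males, and -0.13 on 11 libraries, where the other arms had medians of -0.04 to -0.02. In that fit 10 genes of chromosome 4 passed as lower and 1 as higher, against 2.72% and 2.16% of all genes. Chromosome 4 holds neuronal genes such as unc-13, a synaptic vesicle priming factor, which stood at 15189, 46535 and 44683 under monogamy and 48277, 57627 and 56812 under polygamy, and the part of neuronal content in the chromosome's difference was not tested.

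**Figure D5:**
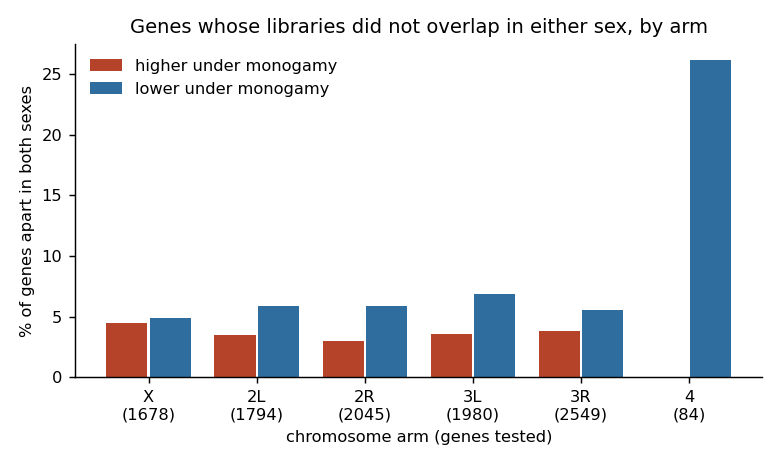
Percent of tested genes on each chromosome arm (y axis; numbers of tested genes in brackets) whose libraries did not overlap in either sex, higher in red and lower in blue under monogamy. Shares are similar on X, 2L, 2R, 3L and 3R, and on chromosome 4 all 22 such genes were lower.

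Neighbouring genes shared directions a little more often than genes at large, a description for which no test was made. Arm and order were read from the BDGP6 annotation, for 10130 tested genes. Of the neighbours of genes lower in both sexes 8.57% were themselves lower in both, against 6.04% of all genes, and 7.2% when annotated genes that overlap were left out. For genes higher in both sexes these shares were 5.18%, 3.61% and 5.45%. There were 7 runs of 3 or more neighbours apart in both sexes in 1 direction, with 22 genes in all. They included the cluster Lectin-galC1, lectin-37Da and lectin-37Db (lower, median -2.04), the run NimC1, Cyp28a5 and NimC2 (higher, 0.735), and on chromosome 4 the run Hcf, dati and lgs (lower, -0.402). The longest had 4 genes, qkr58E-3, PolE4, qkr58E-1 and qkr58E-2 (lower, -0.275), 1 pair of which overlaps. The strand of counting is not given in the sources used here, so overlapping and antisense pairs may share reads.

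The difference between sexes in the mating effect was tested directly, as it bounds what can be called shared. By limma on the female minus male difference within each population, 12 of 10568 genes (0.114%) had an adjusted p under 0.05, and 807 (7.64%) an unadjusted one. With the population number as a replicate block, 0 genes passed. The number that passed was 5 without monogamous population 1, of which 4 had a female difference below the male one and 1 above it, 2 without monogamous population 2, and 0 without monogamous population 3 or any 1 of the polygamous populations. The female difference of the 5 named genes without the female library of monogamous population 1 was -1.44 for CG13041, -0.55 for Cda4, -1.81 for CG8736, 0.26 for CG13062 and -1.58 for Vajk3. All 12 had a female difference below the male one. CG13041 (FBgn0036605) had female libraries at 7, 10.4 and 9.37 in the monogamous and 19.3, 31.9 and 37.9 in the polygamous populations. Its male libraries stood at 12.8, 16.9 and 15.2 in the monogamous and 6.73, 10.9 and 11 in the polygamous populations. It was thus lower under monogamy in females (-1.59) and higher in males (0.62), with a female minus male difference of -2.21 (SE 0.11, limma adjusted p = 0.0151). Cda4, a chitin deacetylase gene, had female libraries at 169, 168 and 202 in the monogamous and 243, 242 and 331 in the polygamous populations. Male libraries of Cda4 stood at 328, 316 and 371 under monogamy and 186, 182 and 238 under polygamy, and the female minus male difference was -1.34 (limma adjusted p = 0.0476). Both sexes were apart, in opposite directions. CG8736 and Vajk3, a cuticle protein gene of the Vajk family, had differences of -3.29 and -3.01, and CG13062 one of -1.47, with a female difference of only 0.051. Several of the other 7, chosen here after their values were seen, are also cuticle genes, among them the chitin synthase gene kkv and the cuticle protein genes Cpr97Eb and Acp1. The 57 genes of the cuticle protein list had a median difference of -0.18 in females and 0.26 in males. On population means, which average the sexes, the 5 named genes differed by -0.49 (CG13041), 0.081 (Cda4), -0.12 (CG8736), 0.79 (CG13062) and 0.10 (Vajk3).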

How the data were processed

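Heads of 12 groups of virgin flies were sequenced, 1 library per sex in each of 6 populations. The deposited values are a normalised read-count signal, which the authors made with TopHat2, HTSeq and DESeq2 on build BDGP5, per the submitters' processing notes. The sources used here state neither tool versions, counting strand nor annotation. All 11236 genes lie above 0 in all 12 libraries, so genes at 0 in any library were not seen. Whole reads were recovered for 100.0% of values under 1000 reads, within 0.1 reads, giving 34558521 to 52282995 reads per library, against deposited totals of 45916924 to 45943793. Each value is a single library, so precision comes from the spread of 3 populations per mating system, and p-values measure only that spread.

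From these values log2(value + 1) was averaged over the sexes of a population, for genes with a mean of 10 or more, and tested with limma 3.58.1 (eBayes with trend, Benjamini-Hochberg adjustment over 10568 genes, called under 0.05) in R 4.3.3. The sex difference was tested in the same way on female minus male values. Groups were called apart when their values did not overlap. The alternatives were other pseudocounts (0.1 and 10), other filters (none, or a mean of 100 or more), TMM and upper-quartile rescaling, no trend, a replicate block, each population left out, the log2 of the mean of the sexes, library fits with the population as a random block, and edgeR 4.0.16 and DESeq2 1.42.0 on recovered reads summed per population. The limma step was tested on simulated data. Deviations of same-numbered monogamous and polygamous populations correlated at 0.176, 0.193 and 0.208, and the labels do not say what the number marks. The main fits used no block, and the replicate block was run as an alternative. If the number marks a pairing, the main fits leave it out.

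Named genes were the 12 with the smallest p in each direction among genes whose population means did not overlap. The 8 with the largest difference in each direction among those apart in both sexes were added. So were up to 3 of each gene list and 5 of the sex-difference test. One gene that this rule names is not reported here. Population means, gene lists and this rule were chosen with earlier results of these data known. Symbols came from the gene table for 10782 IDs, and 454 IDs without a symbol were tested but not placed. Chromosome arms and gene order came from BDGP6, used without coordinates. Python 3.11.15 was used for summaries.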

Additional observations from a re-analysis of the deposited data

Results flagged for a closer look

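The mating difference itself differed between females and males, by limma adjusted p under 0.05, in 12 genes, although 0 passed with the population number as a replicate block. Among them CG13041 had a female minus male difference of -2.21 log2 units, Cda4 of -1.34, CG8736 of -3.29, CG13062 of -1.47 and Vajk3 of -3.01. In CG13041, Cda4, CG8736 and Vajk3 the monogamous libraries lay below the polygamous ones in females and above them in males, without overlap in either sex. In CG13062 the groups overlapped in females and were apart in males.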

How the results depend on the processing

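The count of 0 genes called on population means held for edgeR and for every limma alternative on population means, including each population left out. It did not hold for DESeq2 (282 higher, 104 lower), for the 12 libraries with the population as a random block (64 higher, 32 lower) or for 11 libraries (228 higher, 287 lower, 2681 at an unadjusted p under 0.05). Leaving out 1 population gave 797 to 1865 genes at an unadjusted p under 0.05. With the population number as a replicate block, the population means had 0 called genes and 1804 at an unadjusted p under 0.05, and the sex difference went to 0 called genes, against 12 without the block. The 12 genes of the sex difference, all with a female difference below the male one, became 1 with no filter, 1 with a pseudocount of 0.1, 1 after upper-quartile rescaling, 2 with no trend and 0 to 4 with 1 population left out. A gene with a female difference above the male one was called after TMM rescaling (1), at a mean of 100 or more (1) and with 1 population left out (0 to 1), and 457 to 1753 genes then had an unadjusted p under 0.05. TMM rescaling lowered the genes apart in both sexes as lower to 419. Fewer populations overlap less often by construction: with 1 left out, 501 to 913 genes were apart in both sexes as higher and 823 to 1217 as lower, 389 to 692 in all libraries, and 1482 to 2028 had population means apart as higher. The sign on population means turned for 2 named genes of the sex difference. CG8736 gave 0.14 on 11 libraries and -0.36 to 0.10 with 1 population left out, against -0.12. Vajk3 gave -0.32 by DESeq2, -0.31 by edgeR, -0.34 from the log2 of the mean of the sexes and -0.19 to 0.39 with 1 population left out, against 0.10. The cause was not tested. These data are limited by 3 populations per mating system, 1 library per population and sex, an unknown number of flies per library, 1 library that stood apart, and whole heads of mixed tissue. Genes near the filter, such as lectin-37Db and Decay, rest on few reads.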
